A study of Mus musculus with 24 samples.

Results

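The proteasome is the barrel-shaped protease that degrades proteins tagged with ubiquitin, and 49 of the 25965 entries measured in single mouse eggs carry its gene symbols. They were taken by pattern, as every symbol made of Psm, a letter from a to g and a number, and 1 name ending in -ps was left out. By role they are 7 alpha ring and 7 beta ring subunits of the 20S core, 5 immune, thymus and testis forms, 6 ATPases and 11 non-ATPases of the regulatory cap, 3 base assembly chaperones, 4 activators, 1 inhibitor and 4 core assembly chaperones. The remaining entry, Psmc3ip, encodes a cofactor of meiotic recombination and not a proteasome subunit, and is given apart.

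Messenger RNA was measured in single eggs collected from the oviduct after natural ovulation, freed of cumulus cells and zona, and amplified one by one with the SMART-Seq v4 kit. The transgenic females were Thy1.2-AMHTg/0, in which a Thy1.2 promoter drives anti-Müllerian hormone, and the wild-type females Thy1.2-AMH0/0; the labels give their age only as adult, and the study asked whether excess hormone alters egg transcripts. Values stand for 10 oocytes of 4 transgenic females, 11 oocytes of 4 wild-type females and 1 control RNA supplied with the kit, whose tissue the labels do not name. Sequencing used 4 lanes with 1 female per genotype in each, the control RNA ran in lane 4, and the female is the replicate.

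The 20S core has an outer ring of alpha subunits on each side, which gates the barrel, and inner rings of beta subunits, 3 of which cut: Psmb6, Psmb7 and Psmb5. Interferon-induced forms (Psmb9, Psmb10 and Psmb8) can take their places, and ATPases of the cap unfold the substrate. The core and the cap each hold their own subunits in equal numbers. In eggs the proteasome is known for destroying cyclin B and securin, which ends the arrest at metaphase II after fertilisation.

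Oocyte libraries held 20441302 to 33341040 reads, so that 3 reads stood for 0.0900 to 0.147 RPM (reads per 1000000 library reads). All 11 oocyte markers were present, with a summed level of 19032 to 29783 RPM in the 8 females against 17.3 RPM in the control RNA. Cumulus and granulosa markers summed to 0.688 to 2.42 RPM in transgenic and 1.14 to 17.5 RPM in wild-type females (509 RPM in the control RNA), with Foxl2 and Npr2 at 0 in every oocyte. The highest of these sums was in the wild-type female of lane 2. Of these markers Hsd3b1 had reads in 16 oocytes (mean over females 0.617 RPM) and Has2 in 12 (0.279 RPM). Both were at 0 in the control RNA. Leukocyte markers summed to 3.57 to 6.06 RPM with Ptprc and Lyz2 at 0, and the 4 red blood cell markers found were at 0. The largest leukocyte values were those of Cd68 and H2-Aa. Cd68 had reads in 19 oocytes (mean over females 2.83 RPM, against 6.90 RPM in the control RNA). H2-Aa had reads in all 21 (1.60 RPM against 0.771 RPM). The oocytes of 2 females stood apart from the rest of their genotype: in the wild-type female of lane 4, 666 of the 10987 tested genes were at least 2-fold higher and 434 at least 2-fold lower than the mean of the other wild-type females, and in the transgenic female of lane 1 it was 345 and 146 genes. In the other 6 females at most 141 genes were higher and at most 212 lower, so the counts over the proteasome genes and their classes are also given without either of these females.

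RefSeq start sites (GRCm38.p6) were found for 41 of the 49 genes, with 44 windows of 250 bases before to 50 after the start. The 250 bases before the start of the subunit with the highest level per length (Psma7), of a high and a low catalytic subunit (Psmb6 and Psmb5) and of the highest cap subunit (Psmd4) are printed to set the high and low genes side by side. Capitals mark any match, on either strand, to 3 motifs: TGACNNNGC, the core of the antioxidant response element through which proteasome genes are induced; CCAAT; and CCGGAA, the core bound by factors of the ETS family.
Psma7, chr2:180042465-180042714, minus strand: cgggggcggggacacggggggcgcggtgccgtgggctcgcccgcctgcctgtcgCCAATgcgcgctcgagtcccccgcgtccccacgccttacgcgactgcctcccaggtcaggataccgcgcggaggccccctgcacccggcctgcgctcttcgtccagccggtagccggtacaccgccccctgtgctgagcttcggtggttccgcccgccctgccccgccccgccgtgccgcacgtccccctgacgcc
Psmb6, chr11:70525107-70525356, plus strand: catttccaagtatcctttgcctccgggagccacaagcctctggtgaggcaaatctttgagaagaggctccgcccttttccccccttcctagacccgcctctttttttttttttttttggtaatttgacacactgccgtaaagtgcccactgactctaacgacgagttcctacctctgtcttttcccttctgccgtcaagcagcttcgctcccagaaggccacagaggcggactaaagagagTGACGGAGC
Psmb5, chr14:54617996-54618245, minus strand: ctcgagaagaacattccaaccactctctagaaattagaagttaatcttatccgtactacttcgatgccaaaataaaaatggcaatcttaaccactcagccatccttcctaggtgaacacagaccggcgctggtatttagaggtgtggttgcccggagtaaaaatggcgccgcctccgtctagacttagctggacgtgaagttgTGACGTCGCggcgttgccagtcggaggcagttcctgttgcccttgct
Psmd4, chr3:95042615-95042864, minus strand: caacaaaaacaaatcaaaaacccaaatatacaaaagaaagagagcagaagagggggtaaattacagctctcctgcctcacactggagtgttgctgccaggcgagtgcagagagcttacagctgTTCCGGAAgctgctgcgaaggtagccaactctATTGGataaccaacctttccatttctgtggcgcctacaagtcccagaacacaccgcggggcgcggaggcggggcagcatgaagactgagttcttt
Both catalytic genes held a TGACNNNGC match close to the start, beginning 9 bases before it in Psmb6 and 47 bases before it in Psmb5. Psmd4 had CCGGAA on both strands, overlapping each other, and CCAAT on the opposite strand, and Psma7 had a CCAAT 196 bases before its start. Over whole windows, CCGGAA was present in 22 of 44 windows of these genes, 50% against 14.9% of all 32851 windows of that length. The share with TGACNNNGC was 13.6% (6 windows, among them Psmb5, Psmb6, Psmd12 and Psme4) against 12.4% of all windows, and with CCAAT 34.1% (15 windows) against 37.4%. A match is a description of the letters, not a site shown to be used.

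The 31 constitutive subunits, which meet in equal numbers within the core and within the cap, were present at very unequal levels in the egg. Per length (RPM per kilobase of union exon, the only scale on which genes are compared with each other), Psma7 was the highest at 285 ± 67.3 (mean ± SD over 8 females) and the cap subunit Psmd13 the lowest at 0.141 ± 0.106. That range is 2024-fold. In the control RNA, handled with the same kit and table, the range was 24.1-fold, from Psmd11 at 8.84 to Psmc5 at 213. The SD of the log2 level per length across the 31 genes was 2.36 in oocytes and 0.88 in the control RNA, and in single females it ran from 1.99 to 2.53 over the subunits above 0. Without Psmd13 the ranges were 327-fold and 24.1-fold. For 14 subunits with less than 1% of their 50-base windows shared with another annotated gene, which leaves few reads that could belong to a copy, they were 30.4-fold and 9.11-fold. Across the 31 genes, levels in oocytes and in the control RNA had a Pearson's r of 0.29 and a Spearman's rho of 0.29, a description over genes measured in the same libraries. The kit primes on the poly(A) tail, so all values are of tailed RNA, and tail length was not measured.

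**Figure D1:**
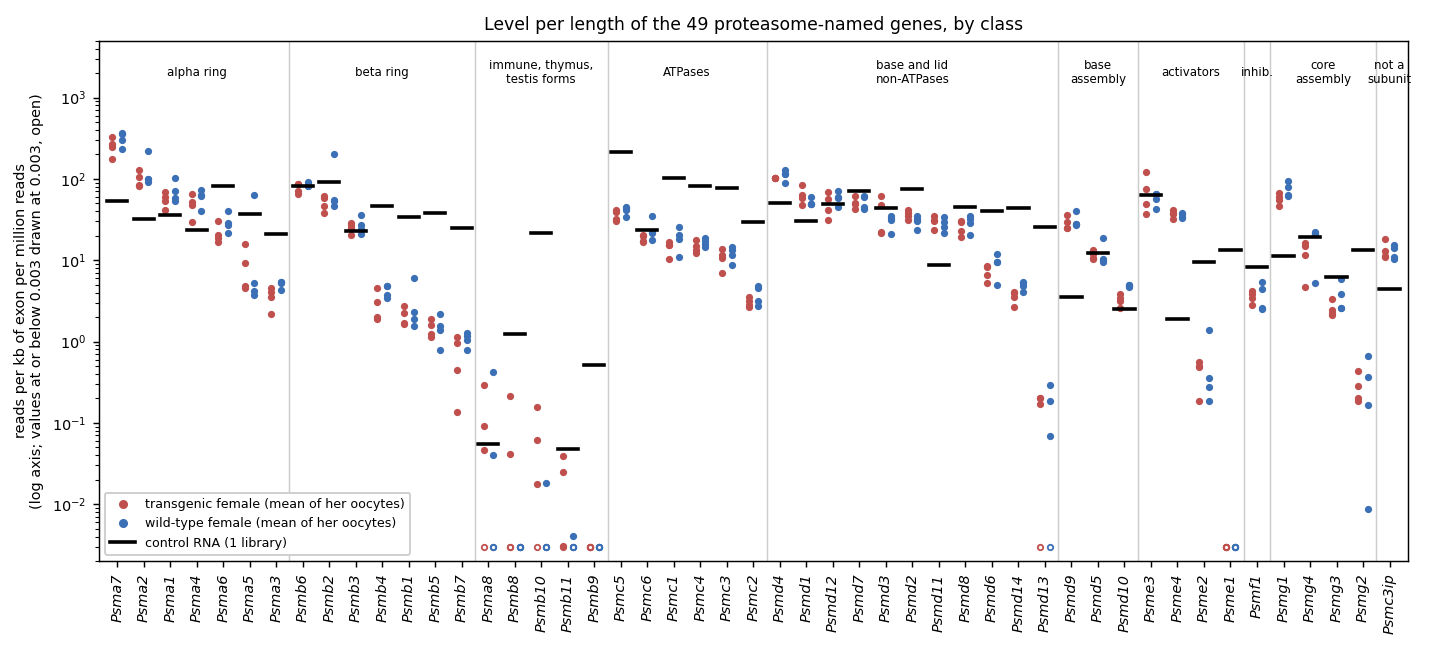
Level per length of each gene (log axis, RPM per kilobase of exon) by class; points are females, red transgenic and blue wild-type, and black bars the single control RNA library. Egg levels in the alpha ring run from 4.35 (Psma3) to 285 (Psma7) and those of Psmb7, Psmb5 and Psmd13 lie far under the control RNA, while control levels of the constitutive subunits stay between 8.84 and 213.

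Summed over the 31 genes the egg and the control RNA were nearly level, at 3821 ± 276 RPM (SD, n = 8 females) and 4152 RPM. The shares of the classes were not. The alpha ring summed to 1675 ± 280 RPM in oocytes against 677 RPM in the control RNA, the beta ring to 319 ± 93.3 against 682 RPM, the ATPases to 241 ± 33.0 against 1105 RPM, and the base and lid non-ATPases to 1586 ± 146 against 1688 RPM. Median levels per length were 54.1 for the alpha ring, 3.54 for the beta ring, 16.1 for the ATPases and 33.5 for the non-ATPases in oocytes. In the control RNA they were 35.9, 38.1, 79.4 and 43.5.

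Gene by gene, 47 of the 49 reached 1 RPM in the oocytes or the control RNA and could be set side by side. The oocytes were at least 2-fold higher in 9, Psmc3ip among them, and at least 2-fold lower in 24. These counts use the log2(RPM + 1) scale of every difference here, which understates the change of low genes. Over all 16105 genes so compared, 23.7% were at least 2-fold higher and 57.4% at least 2-fold lower in oocytes. The shares of these genes, 9 and 24 of 47, are thus near those of all genes, and the median difference was -1.10 against -1.46 over all. With 1 control library there is no test. At a 4-fold limit 4 were higher, Psma7, Psmd9, Psme4 and Psmg1, and 19 lower, beside 14.6% and 42.1% of all compared genes.

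In the alpha ring, Psma7 (Ensembl positions chr2:180036373-180042433, GRCm38) was at 535, 828, 1018 and 753 RPM in the transgenic females of lanes 1 to 4 and at 919, 1124, 1109.8 and 711 RPM in the wild-type females, against 163 RPM in the control RNA. All 21 oocytes were above the control, and the genotypes overlapped. Psma2 and Psma4 were also at least 2-fold higher than the control RNA, at 417 ± 164 and 128 ± 34.3 RPM (n = 8 females) against 119 and 56.5 RPM. Psma3, Psma5 and Psma6 were at least 2-fold lower, Psma3 at 16.9 ± 4.32 RPM against 82.3 RPM. For Psma5 50% of the 50-base windows of its exons occur in another annotated gene, mostly the copy Gm8394. Psma8, the form that replaces Psma7 in male germ cells, had 133 reads in 7 of 21 oocytes. By female it was at 0.225, 0.117, 0.721 and 0 RPM in transgenic and 0.101, 0, 0 and 1.07 RPM in wild-type, with 3 reads (0.136 RPM) in the control RNA.

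Levels per length in the beta ring spanned 93.3-fold in oocytes and 3.94-fold in the control RNA, and both ends of the range in oocytes were cutting subunits. Psmb6, the caspase-like site, was at 132, 159.9, 123 and 162 RPM in transgenic and 159.8, 155, 152 and 174 RPM in wild-type females, level with the 153 RPM of the control RNA. Psmb5, the chymotrypsin-like site, was at 1.11, 1.02, 1.68 and 1.45 RPM in transgenic and 1.26, 1.41, 0.710 and 1.96 RPM in wild-type females, against 34.2 RPM. Every oocyte was below the control RNA for Psmb5, whose mean over the females was 25.8-fold lower. Psmb7, the trypsin-like site, was at 1.53, 3.32, 3.85 and 0.470 RPM in transgenic and 4.02, 2.69, 4.38 and 3.59 RPM in wild-type females, 28.4-fold below the 84.8 RPM of the control. Per length Psmb6 stood at 81.3 ± 8.90, Psmb5 at 1.47 ± 0.437 and Psmb7 at 0.872 ± 0.395 in oocytes (n = 8 females), against 81.7, 38.1 and 24.8 in the control RNA. For Psmb5 54.1% of the windows are shared with another annotated gene (mostly Gm3375) and for Psmb7 9.26%. The part of this sharing in these values was not tested, in oocytes or in the control RNA. The structural subunits Psmb1 and Psmb4 were low as well, at 11.6 ± 6.85 and 6.90 ± 2.28 RPM against 157 and 90.4 RPM, while Psmb3 (59.8 ± 11.1 against 53.0 RPM) and Psmb2 (84.6 ± 65.6 against 109 RPM) lay within 2-fold. Psmb6 was also the steadiest of the 40 tested genes between sister oocytes, with an SD of 0.12 (log2, pooled within females) against a median of 0.41 over all tested genes.

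The immune forms were at or near 0 in the eggs. Psmb9 had no read in any of the 21 oocytes, which allows up to 0.00600 RPM over all of them, against 42 reads (1.91 RPM) in the control RNA, at least 317-fold higher with 3 reads over all oocytes as the floor. Psmb10 had 27 reads in 4 oocytes, at 0.0300, 0.267, 0 and 0.106 RPM in the transgenic and 0, 0.0311, 0 and 0 RPM in the wild-type females, against 37.3 RPM in the control RNA. Psmb8 had 54 reads in 2 oocytes, at 0, 0.140, 0.729 and 0 RPM in the transgenic females and 0 in the 4 wild-type females, against 4.13 RPM. The thymus form Psmb11 had 20 reads in 4 oocytes and 5 in the control RNA. Of 10 partners in antigen presentation, the peptide transporter gene Tap1 was at 0.00394 RPM, the class I gene H2-D1 at 0.0185 RPM and the transactivator Nlrc5 at 0.113 RPM as means over females, and Ciita had no read. B2m (14.5 ± 4.13 RPM), H2-K1 (12.4 ± 3.77 RPM) and the interferon-response factor Irf1 (34.8 ± 3.89 RPM) were present in all 21 oocytes. None of the 5 of these partners that were tested differed between genotypes (smallest adjusted p 0.76, limma).

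**Figure D2:**
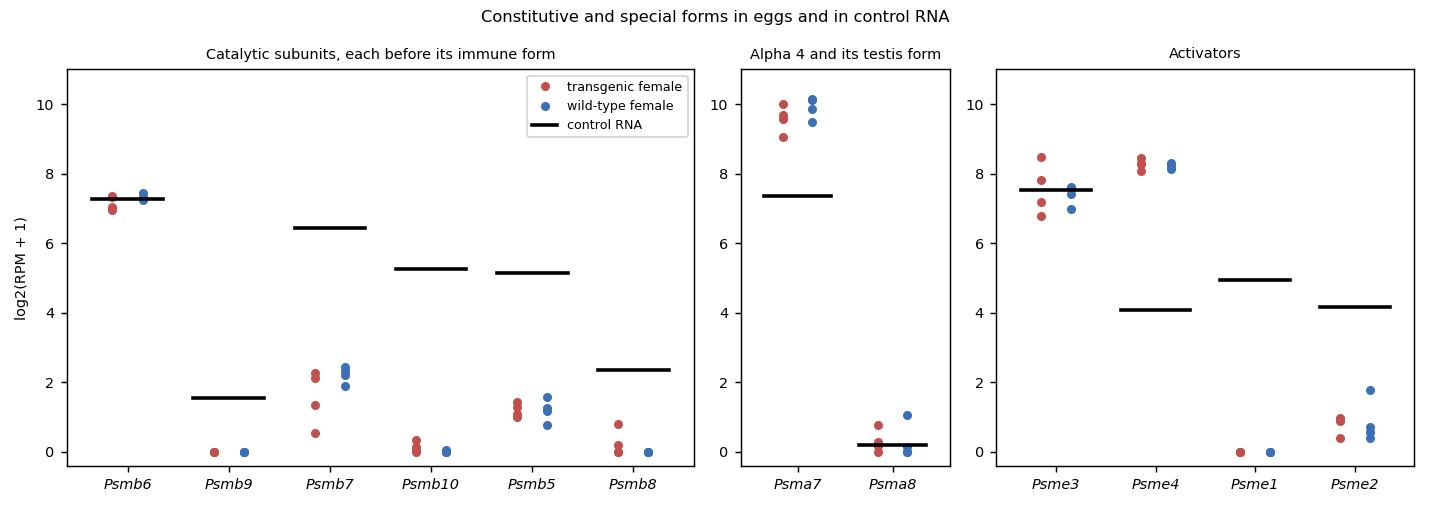
Levels of the catalytic subunits and their immune forms, of Psma7 and its testis form Psma8, and of the 4 activators, as log2(RPM + 1); points are females (red transgenic, blue wild-type), black bars the control RNA. Psmb6 lies on the control bar while Psmb5 and Psmb7 lie far under it, Psmb9 and Psme1 are at 0 in all 8 females, and Psme4 lies above its bar of 16.0 RPM in all of them.

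The cap ATPases, which form the ring that unfolds substrates, were the most even of the 4 classes of constitutive subunits in oocytes, from 3.42 (Psmc2) to 38.4 (Psmc5) per length, an 11.2-fold range against 9.11-fold in the control RNA. All but Psmc6 were at least 2-fold lower than the control RNA, beside 57.4% of all compared genes. For those 5 every oocyte was below it, and the share of all genes for which that holds was not counted. Psmc5 was at 41.8, 58.0, 54.6 and 44.6 RPM in transgenic and 57.1, 61.6, 63.2 and 47.0 RPM in wild-type females, against 297 RPM. Psmc2 was at 13.2, 15.9, 14.3 and 17.5 RPM in transgenic and 16.0, 13.7, 24 and 23.1 RPM in wild-type females, against 147 RPM. The genotypes overlapped in both. Psmc6 was at 59.5, 71.8, 68.8 and 57.9 RPM in transgenic and 77.7, 62.1, 74.7 and 122 RPM in wild-type females, beside 81.9 RPM in the control RNA.

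Among the non-ATPases, the ubiquitin receptor Psmd4 was the highest per length at 108 ± 12.4. It was at 290.3, 285, 291 and 292 RPM in transgenic females, an SD of 2.91 RPM over the female means. Single transgenic oocytes ran from 222 to 351 RPM. In wild-type females Psmd4 was at 322, 365, 325 and 248 RPM, and all 8 females were above the 144 RPM of the control RNA. The base scaffold Psmd1 was at 418 ± 87.6 RPM against 224 RPM. The lid subunit Psmd11 was at 183 ± 30.6 RPM against 56.4 RPM, at least 2-fold higher. Psmd13, another lid subunit, was nearly missing: it was at 0.570, 0.682, 0 and 0.692 RPM in transgenic and 0.996, 0.630, 0 and 0.233 RPM in wild-type females, with reads in 12 of 21 oocytes, against 1908 reads (86.6 RPM) in the control RNA, 182-fold higher. Psmd14, the enzyme of the lid that removes ubiquitin from the substrate, was at 11.9 ± 2.55 RPM against 123 RPM. Psmd2, Psmd6 and Psmd14 joined Psmd13 as at least 2-fold lower, and Psmd3, Psmd7, Psmd8 and Psmd12 lay within 2-fold.

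The activators, which cap the core in place of the ATPase cap, were split. Psme4 (PA200, an activator linked to histone breakdown in male germ cells; chr11:30771726-30880361, GRCm38) was at 267, 317, 350.2 and 312 RPM in transgenic and 315, 289, 306 and 277 RPM in wild-type females against 16.0 RPM in the control RNA, 19.0-fold higher on the means. All 21 oocytes, at 183 to 379 RPM, were above the control. Psme3, the nuclear activator, was at 357, 109.9, 145 and 224 RPM in transgenic and 169, 195, 127 and 189.9 RPM in wild-type females, beside 185 RPM. The interferon-induced pair Psme1 and Psme2 was at or near 0. Psme1 had no read in any oocyte against 654 in the control RNA (29.7 RPM), at least 4942-fold higher with the same floor. Psme2 was at 0.327, 0.875, 0.861 and 0.981 RPM in transgenic and 0.628, 0.327, 0.483 and 2.42 RPM in wild-type females against 17.0 RPM, with 28.3% of its windows shared with a copy. The inhibitor Psmf1 was at 22.0, 27.3, 24.6 and 18.4 RPM in transgenic and 16.0, 34.9, 28.3 and 16.7 RPM in wild-type females against 53.5 RPM.

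Assembly chaperones that work in pairs were also uneven. Psmg1 and Psmg2 act together in building the alpha ring. Psmg1 was at 61.6, 80.2, 73.1 and 89.1 RPM in transgenic and 82.0, 85.2, 108 and 127 RPM in wild-type females against 14.9 RPM in the control RNA. Psmg2 was at 0.347, 0.320, 0.491 and 0.754 RPM in transgenic and 0.638, 0.285, 0.0152 and 1.15 RPM in wild-type females against 23.3 RPM. Per length they stood at 65.6 ± 15.2 and 0.287 ± 0.199 in oocytes (n = 8 females) and at 11.1 and 13.4 in the control RNA. The other pair, Psmg3 and Psmg4, was at 9.04 ± 3.60 and 8.15 ± 3.91 RPM, beside 18.1 and 10.8 RPM. Per length this pair stood at 3.12 ± 1.24 and 14.7 ± 7.04 in oocytes and at 6.27 and 19.5 in the control RNA. Of the base chaperones, Psmd9 was at 216, 179, 180.0 and 259 RPM in transgenic and 203, 196, 202 and 290.2 RPM in wild-type females against 25.3 RPM, 8.54-fold higher on the means, with 24.9% of its windows shared with other genes. Psmd5 and Psmd10 lay within 2-fold of the control RNA. Psmc3ip, the recombination cofactor, was at 20.3, 19.7, 23.4 and 33.5 RPM in transgenic and 25.8, 18.7, 19.6 and 28.0 RPM in wild-type females against 8.08 RPM.

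Between the genotypes no proteasome gene passed the test. Testing took in the 40 genes that averaged 1 RPM or more in the oocytes, and 0 had an adjusted p under 0.05 (limma on the female means, 4 against 4, two-sided), as did 0% of all 10987 tested genes. Genes left untested by that limit were Psma8, Psmb8, Psmb9, Psmb10, Psmb11, Psmd13, Psme1, Psme2 and Psmg2. The values of most leaned low: 31 were below and 9 above 0, where 52.2% of all tested genes were below. Among the 9 is Psmc3ip, which is not a subunit, at 0.06. The median log2 difference was -0.26 (transgenic minus wild-type) against -0.01 over all tested genes. At an unadjusted p under 0.05 4 were lower and 0 higher, where 4.03% and 2.78% of all tested genes were. Blocking on lane gave 9 lower and 0 higher, beside 5.72% of all genes lower, and again 0 called. The median moved with single females: it was -0.13 without the transgenic female of lane 1, -0.16 without the wild-type female of lane 3 and -0.16 without that of lane 4, and in the first 2 of these 0 genes were lower at an unadjusted p under 0.05, where 2.09% and 2.54% of all tested genes then were. With the transgenic female of lane 1 left out, 30 were below 0 and 10 above, where 54.1% of all tested genes were below. Without the wild-type female of lane 4, 26 were below 0 and 14 above, where 53.5% of all tested genes were below. In that fit 9 were lower at an unadjusted p under 0.05, beside 7.52% of all tested genes. In lanes 1 to 4 taken alone the median was -0.39, -0.14, -0.19 and -0.13, and over all tested genes -0.02, -0.09, -0.01 and 0.05. Lower in all 4 lanes were 9 of the 40, beside 10.3% of all genes, and higher in all 4 was Psmd2, beside 7.97%. Each female gave 2 or 3 of the eggs used here, and p-values measure the spread between these females.

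**Figure D3:**
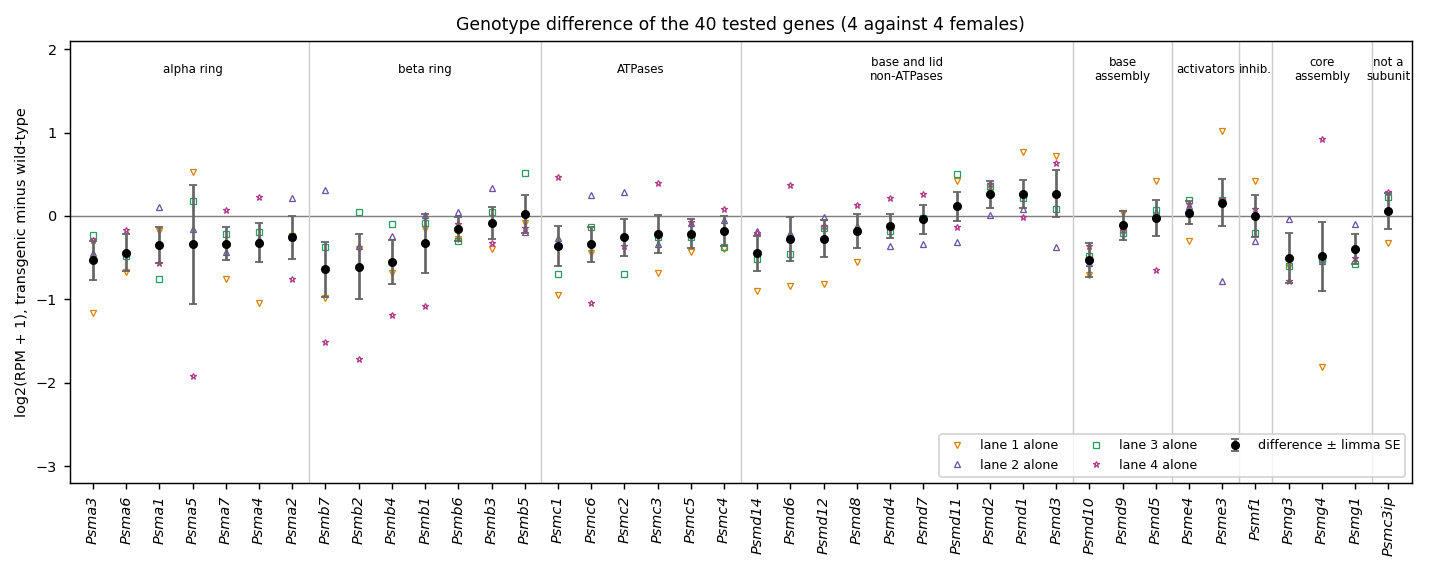
Transgenic minus wild-type difference in log2(RPM + 1) for the 40 tested genes by class; black points are the difference with its limma SE (4 against 4 females) and coloured symbols the difference within each lane. Most black points lie below 0, with a median of -0.26, and 0 genes passed the test.

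The lean was not shared by all classes. All 7 alpha ring genes were below 0 (median -0.34), as were 6 of 7 beta ring genes (median -0.33), all 6 ATPases (median -0.24) and all 3 tested core chaperones (median -0.48). Of the 10 tested non-ATPases 6 were below and 4 above 0 (median -0.08), both tested activators were above 0 (Psme3 0.16, Psme4 0.04), and the inhibitor Psmf1 was at 0.00. With the lane 4 wild-type female left out the tallies below 0 were 5 of 7 in the alpha ring (median -0.47), 4 of 7 in the beta ring (median -0.11), 6 of 6 ATPases (median -0.27), 6 of 10 non-ATPases (median -0.18) and 1 of 3 base chaperones, and the core chaperones had a median of -0.28. Without the transgenic female of lane 1 they were 7 of 7, 5 of 7, 6 of 6, 5 of 10 and 3 of 3, with a median of -0.30 for the core chaperones, and Psme3 was at -0.12. Differences between classes were not tested. Summed levels of the alpha ring were 1118, 1556, 1663 and 1602 RPM in transgenic and 1669, 1826, 1929 and 2039 RPM in wild-type females, and those of the non-ATPases 1842, 1527, 1639 and 1530.0 against 1526, 1726, 1529 and 1369 RPM. The lowest alpha ring sum and the highest non-ATPase sum were both in the transgenic female of lane 1. Her oocytes also had the highest share of reads in listed genes. In lanes 1 to 4 that share was 94.5%, 93.3%, 92.5% and 93.33% in transgenic and 92.7%, 92.4%, 91.8% and 93.27% in wild-type females. It was thus higher in the transgenic female of every lane, by little in lane 4. The part of that share in these values and in the genotype differences was not tested.

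The 4 genes at an unadjusted p under 0.05 were Psmd10, Psma3, Psmg1 and Psmd14. Psmd10 (gankyrin, a base assembly chaperone) was at 3.8, 4.61, 5.07 and 5.59 RPM in transgenic and 6.91, 7.05, 7.28 and 7.35 RPM in wild-type females, against 3.72 RPM in the control RNA. No female of one genotype overlapped the other, and the log2 difference was -0.53 ± 0.21 (SE; limma adjusted p = 0.72, 0.17 to 1.00 over the alternatives), lower in 4 of 4 lanes. Psma3 was at 8.56, 15.9, 18.0 and 13.6 RPM in transgenic and 20.4, 20.9, 21.3 and 16.7 RPM in wild-type females. Its genotypes overlapped through lane 4 of the wild-type, and the log2 difference of -0.53 ± 0.23 (limma adjusted p = 0.72) was -0.33 without the transgenic female of lane 1. Psmd14 was at 7.47, 11.5, 11.2 and 10.1 RPM in transgenic and 14.9, 13.6, 15.1 and 11.5 RPM in wild-type females, with a difference of -0.45 ± 0.21 (limma adjusted p = 0.73); the groups did not overlap, though the highest transgenic and the lowest wild-type female both round to 11.5 RPM. For Psmg1 the difference was -0.40 ± 0.18 (limma adjusted p = 0.73), and its highest transgenic female exceeded the lowest wild-type ones. Groups that do not overlap, with transgenic lower, were these 2 of 40, Psmd10 and Psmd14, beside 2.64% of all tested genes, and with transgenic higher 0 of 40, beside 1.67%.

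Other genes given by the rule for small p-values did not pass either. Psma6 was at 20.9, 25.5, 37.5 and 23.4 RPM in transgenic and 33.9, 35, 49.5 and 26.7 RPM in wild-type females, lower in every lane with a log2 difference of -0.44 ± 0.22. Psmb4 was at 3.87, 6.03, 8.82 and 3.74 RPM in transgenic and 6.75, 7.20, 9.30 and 9.51 RPM in wild-type females, also lower in every lane (-0.55 ± 0.26). Psmb7 was at -0.64 ± 0.33, a low gene whose value was -0.98 with a pseudocount of 0.1 RPM and -0.28 with 5 RPM, and it was higher in the transgenic female in lane 2. Psmd2, the scaffold at the base of the cap, was at 156, 142, 169.6 and 125 RPM in transgenic and 123, 140.4, 130.2 and 95.8 RPM in wild-type females (0.26 ± 0.16). Psmc1 was at 20.2, 29.3, 32.0 and 29.9 RPM in transgenic and 39.5, 35.4, 49 and 21.4 RPM in wild-type females (-0.36 ± 0.24), and the ATPase Psmc6 differed by -0.34 ± 0.20. Without the wild-type female of lane 4 these were -0.58 and -0.15. Psmg3 was at 6.47, 7.14, 6.18 and 9.61 RPM in transgenic and 11.1, 7.42, 7.42 and 16.9 RPM in wild-type females (-0.51 ± 0.30, or -0.26 with the lane 4 wild-type female left out). Limma adjusted p-values of these ran from 0.73 to 0.77.

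The wild-type female of lane 4 set several of the largest values. Both of her oocytes were far from all others for Psma5, at 67.7 and 97.9 RPM where the other 9 wild-type oocytes lay at 3.36 to 8.23 RPM. For Psmb2 they were at 203 and 288 RPM, against 42.9 to 88.3 RPM in those 9. Psma2 (802 against 332 to 368 RPM in the other wild-type females) and Psmb1 (27.9 against 7.19 to 10.7 RPM) were also at least 2-fold higher in her than in the mean of the others, and Psmg4 (2.93 against 11.8 to 12.3 RPM) and Psmd6 (13.7 against 26.5 to 33.0 RPM) at least 2-fold lower. That is 4 of 40 higher and 2 of 40 lower, where 666 and 434 of 10987 tested genes were so in her. These 6 genes were picked after their values were seen. Without her the genotype difference of Psma5 was 0.57 in place of -0.34, of Psmb2 -0.11 in place of -0.61, of Psma2 0.04 in place of -0.26 and of Psmb1 0.06 in place of -0.33. For Psmg4 it was -0.91 in place of -0.48 and for Psmd6 -0.53 in place of -0.28.

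**Figure D4:**
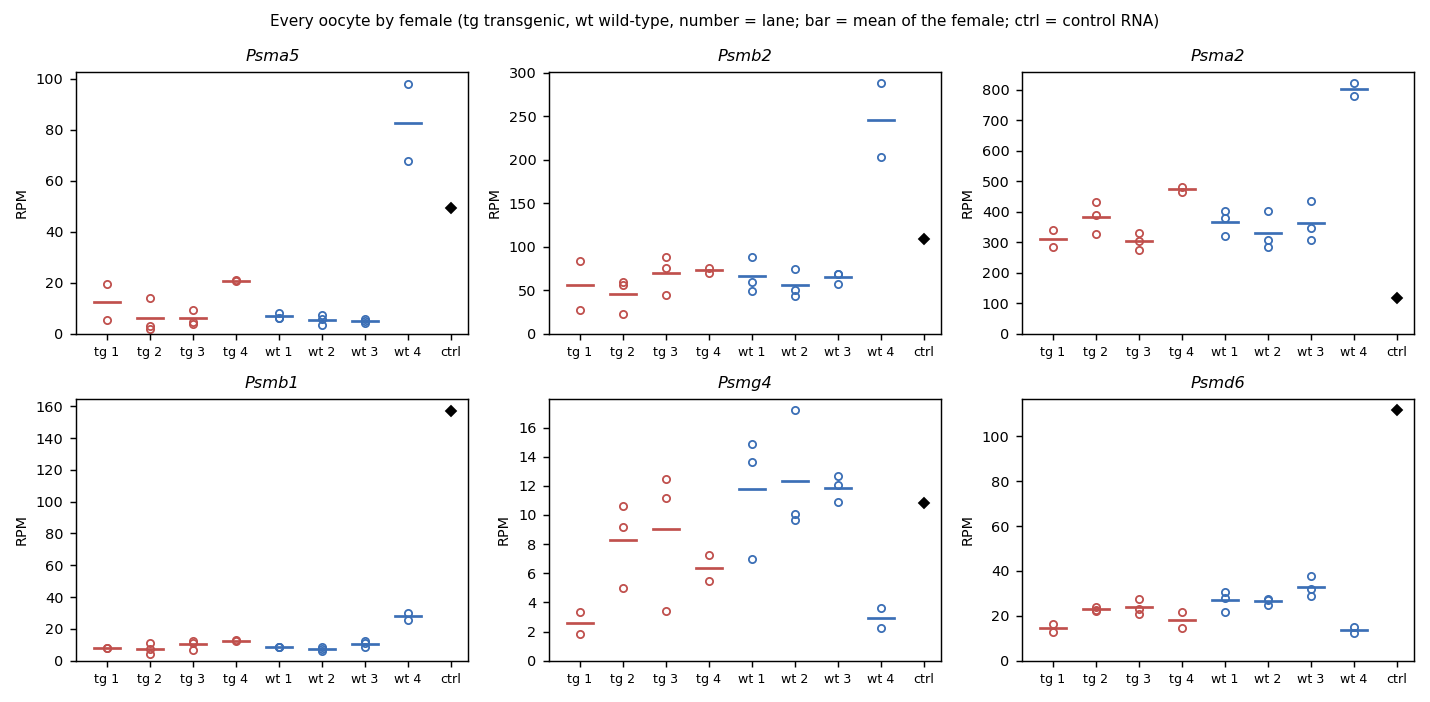
RPM of 6 genes in every oocyte (open circles) by female, with a bar at the mean of the female and a diamond for the control RNA. Both oocytes of the wild-type female of lane 4 lie above all others for Psma5, Psmb2, Psma2 and Psmb1, and are among the lowest for Psmg4 and Psmd6.

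Sister oocytes differed from each other in some subunits together. Each oocyte was expressed as its deviation from the mean of its own female (log2, 21 oocytes of 8 females), which removes genotype and lane. Psma4 and Psmd12 (a lid subunit) deviated together with r = 0.90, Psma7 and Psmc1 with 0.90, Psmd3 and Psme3 with 0.89 and Psma7 and Psma4 with 0.89. These are the highest of the 780 pairs of the 40 genes, whose r ran from -0.82 to 0.90 with a median of 0.02. Of these pairs 12 had an r of at least 0.8 and 7 an r of -0.7 or lower, limits of unlike size. The same shares over pairs of all tested genes were not computed, so these counts have no comparison. With Psma7, 5 of the 39 other genes had an r of at least 0.8, beside 320 of 10986 among all tested genes. In the transgenic female of lane 3, oocyte A held 575 RPM of Psma7 and oocyte C 1447 RPM, and their Psmc1 was at 17.8 and 46.9 RPM. Without the 2 oocytes farthest out (both of that female, except for Psmd3 with Psme3), r was 0.85 for Psma4 with Psmd12, 0.75 for Psma7 with Psmc1, 0.88 for Psmd3 with Psme3 and 0.82 for Psma4 with Psma7. The strongest opposite pair, Psmc3 and Psmd1 at -0.82, rested on the same 2 oocytes and was -0.32 without them. These oocytes share library steps, and the share of reads in listed genes moved with the first set of genes: its r was -0.87 with Psmd12, -0.85 with Psma4, -0.82 with Psmc3, -0.80 with Psma7 and -0.72 with Psmc1. Of the 40 genes 8 had an r with that share of -0.70 or lower, and of all 10987 tested genes 670. For Psmd3 and Psme3 it was 0.55 and 0.49. The part of that share in the common movement was not tested.

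**Figure D5:**
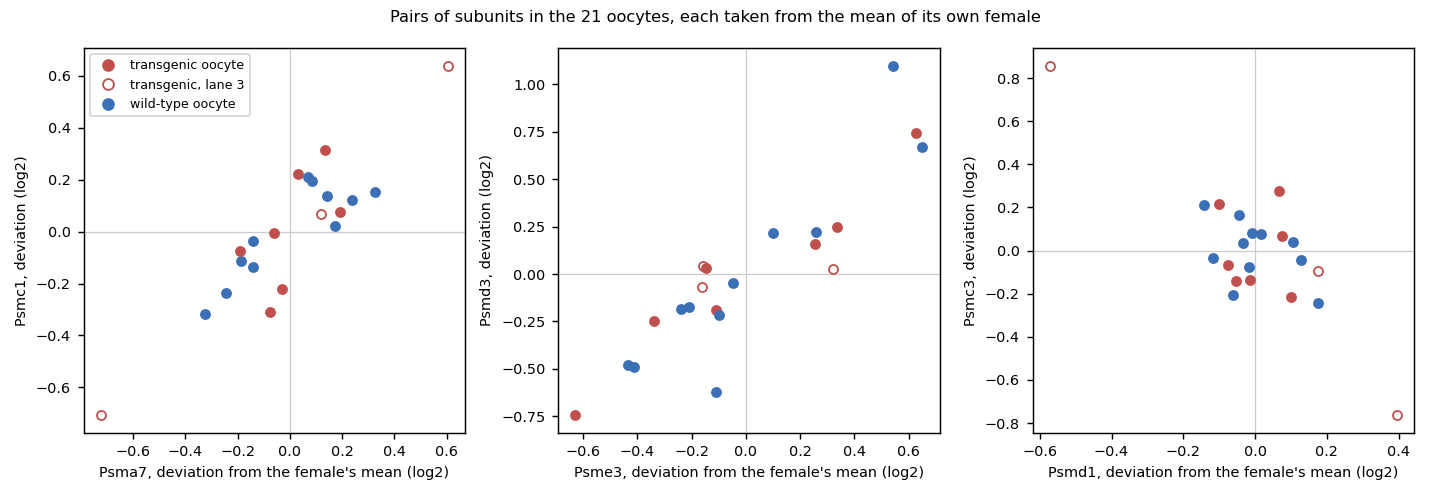
Deviation of each of the 21 oocytes from the mean of its own female (log2) for 3 pairs of genes; open circles are the transgenic female of lane 3. The first 2 pairs rise along the diagonal (r = 0.90 and 0.89), while the fall in the third (r = -0.82) comes from 2 oocytes of that female and is -0.32 without the pair of oocytes farthest out.

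Other genes of the pathway were read from a list of 36, of which 35 were found and 33 tested. None passed the test (smallest limma adjusted p 0.72), and their median difference was 0.06. At an unadjusted p under 0.05 3 of the 33 were lower and 1 higher, where 4.03% and 2.78% of all tested genes were. Pomp, the chaperone that matures the core, was lower in 4 of 4 lanes with 35.8 ± 4.65 RPM in the transgenic females against 55.5 ± 9.86 RPM in the wild-type females (SD, n = 4), a log2 difference of -0.63 ± 0.18 (limma adjusted p = 0.72). The polyubiquitin gene Ubb stood at 271 ± 22.5 and 360.0 ± 41.4 RPM (-0.42 ± 0.14, limma adjusted p = 0.72), and the small lid subunit Shfm1 at 32.6 ± 9.58 and 60.3 ± 40.2 RPM (-0.75 ± 0.34, limma adjusted p = 0.73), and its difference was -0.36 with the lane 4 wild-type female left out, who stood at 120.2 RPM. Keap1, the adaptor that holds the stress factor NRF2 in check, was the higher one at 16.9 ± 6.06 and 10.1 ± 3.24 RPM (0.65 ± 0.28, limma adjusted p = 0.72). Genes of the response that restores proteasome genes when activity falls leaned no single way: Nfe2l1, its main factor, differed by -0.37 ± 0.20, the protease Ddi2 that activates it by 0.18 ± 0.19 and the deglycosylase Ngly1 by 0.25 ± 0.19. Without the wild-type female of lane 4 Ddi2 and Ngly1 were both at 0.07. With the transgenic female of lane 1 left out instead, Ddi2 was at 0.005 and Ngly1 at 0.24.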

How the data were processed

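Values come from the deposited table of 25965 entries and 22 columns, 21 oocytes and 1 control RNA; the water-only library and 1 more lane 1 oocyte (transgenic) are not analysed here. The authors' deposited values are log2 values; they are described as RPKM but hold log2 RPM, with no division by length. Genes with no read carry the value that 0.9 reads would have, and whole reads were recovered from each column's minimum (100% of 256342 values below 2000 reads within 0.02 of a whole read). The submitters' processing notes name the builds GRCm39 and mm39 and, without versions, HISAT2, Trim Galore and FastQC. Not given in the sources used here is how reads were counted, by strand or with several matches. Coordinates in the table match GRCm38: the IDs of 25035 entries, all 49 proteasome genes among them, are in GENCODE M21, which gave exon lengths.

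RPM was computed from the recovered reads. Female means of log2(RPM + 1) were fitted in R 4.3.3 with limma 3.58.1 (lmFit, then eBayes using the trend option) for the 10987 genes averaging 1 RPM or more. P-values were adjusted by Benjamini-Hochberg and called under 0.05; the fit was tested on simulated data. The alternatives were other pseudocounts, filters and scalings, single oocytes, voom, the lane as a block and each female left out. The labels pair the females by lane; deviations of lane mates correlated at -0.04, 0.08, 0.34 and 0.32 in lanes 1 to 4. Promoter windows are RefSeq's. Differences from the control RNA and correlations between oocytes carry no test, since there is 1 control library and the oocytes of a female share their source. Genes given by female were chosen by rule: the catalytic, immune, testis and activator genes, the inhibitor, the 2 smallest p and the highest and lowest level per length of each class. Members and lists were chosen with earlier results of these data known.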

Additional observations from a re-analysis of the deposited data

Results flagged for a closer look

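In 44 groups of 4 females (22 named genes in 2 genotypes) the highest or lowest female was compared with the spread of her group, and 2 groups held a female whose distance from the nearest other exceeded Dixon's 95% limit, where chance gives about 1 in 20. Psmc1, an ATPase of the cap, was at 20.2 RPM in the transgenic female of lane 1 and at 29.3 to 32.0 RPM in the other transgenic females. Psmd9, a base assembly chaperone, stood at 290.2 RPM in 1 wild-type female, that of lane 4, and at 196 to 203 RPM in the other wild-type females. The check did not take in Psma5, Psmb2, Psma2, Psmb1, Psmg4 and Psmd6, in which that female also stood apart.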

How the results depend on the processing

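Over 18 alternatives 0 proteasome genes were called. Leaving out 1 female at a time, the median difference of the tested proteasome genes ran from -0.28 to -0.13, and 0 or 1 of all genes were called; a fit to single oocytes (random effect of female, lane as replicate block) called 12 genes, none of them here. The lane as a replicate block changed no other call. Of 394 differences of 22 named genes under these alternatives, 377 kept their direction. The 17 others belong to 6 genes with a log2 difference of at most 0.16, and none was called. Over all 40 tested genes 30 of 718 values changed sign, in 12 genes with a main difference of up to 0.34 in size, 7 of them without the wild-type female of lane 4, and 0 were called. Psmf1 (0.00) was at -0.00434 with a pseudocount of 5 RPM, -0.0122 when scaled to reads in listed genes, -0.000996 with single oocytes and -0.0282 with single oocytes and the lane block. With females left out in turn Psmf1 ran from -0.15 to 0.19, Psmb5 from -0.10 to 0.12, Psmc3ip from -0.10 to 0.15, Psmd9 from -0.23 to 0.021, Psme3 from -0.12 to 0.41 and Psme4 from -0.027 to 0.13. At a 4-fold limit 4 genes were higher than the control RNA in place of 9. Lengths of the longest transcript in place of union exons raised the class medians per length (alpha ring 110.0, beta ring 5.88), and the range over the 31 subunits was then 2416-fold in oocytes and 11.2-fold in the control RNA. Depth limits statements on genes near 3 reads, 0.0900 to 0.147 RPM in 1 oocyte; intervals for such counts would cover counting error only.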

Other observations

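Beyond the complex itself, pathway genes stood on both sides of the control RNA. Values are means over the 8 females with their SD, beside the single control RNA. The proteasome scaffold AI314180 (Ecpas) was at 281 ± 32.8 RPM against 57.1 RPM, the nuclear import factor for proteasomes Akirin2 at 535 ± 106 against 67.4 RPM, the protease Ddi2 at 275 ± 66.3 against 40.4 RPM and the deglycosylase Ngly1 at 144 ± 26.9 against 38 RPM. The segregase Vcp was at 19.5 ± 5.95 RPM against 161 RPM, and its partners Nploc4 and Faf2 at 6.09 ± 3.17 and 5.01 ± 2.00 RPM against 129.7 and 79.9 RPM. Among the shuttle genes, each read against its own control level, Ubqln1 was at 525 ± 173 RPM (351 RPM in the control RNA), Rad23b at 121 ± 52.9 RPM (26.6 RPM) and Ubqln4 at 1.72 ± 0.905 RPM (116 RPM). These genes were picked from the list after their values were seen, and with 1 control library there is no test.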
